A study of Rattus norvegicus with 30 samples.

Results

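The comparison described here is rat liver 24 h after removal of 70% of the organ against liver at 0 h, over all 388 rat miRNA names on the chip. The arrays were chosen by their labels alone, 3 at 24 h and 3 at 0 h, which is 6 of the 30 arrays of the series. All animals were male Wistar rats. The hepatectomy groups were taken at 0, 2, 6, 12, 24 and 48 h and 5 d after 70% partial hepatectomy, and sham laparotomy groups, opened and closed without resection, at 12, 24 and 48 h. Each group held 3 arrays, given as biological replicates. The labels give no ages, do not say whether tissue of several animals was pooled, and define the 0 h liver no further than by its time. Total RNA that kept the small RNA fraction was hybridised to a febit chip, on which bound miRNA serves as primer for an enzyme that builds in biotin, so that 1 colour is read per spot.

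A miRNA is a short RNA that guides an Argonaute protein to messenger RNAs, mostly through its seed, the bases 2 to 8 from its 5′ end, and lowers their translation and stability. After partial hepatectomy the quiescent hepatocytes of the remaining lobes enter the cell cycle, and in the rat their DNA synthesis peaks at about the first day. Cell cycle genes are targets of several families that are abundant in quiescent liver, such as let-7 and miR-26, while miR-122 makes up much of the miRNA content of a hepatocyte.

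The mature sequences below carry the comparison. They are shown 5′ to 3′, from RefSeq for the rat assembly GRCr8, with the seed in capitals. They show which of the miRNAs that changed belong to 1 seed family and how little the members of a family differ. RefSeq held a mature entry for 336 of the 388 names. For a name without an arm, or one ending in *, an entry of either arm counted.
let-7a: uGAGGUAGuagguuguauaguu
let-7b: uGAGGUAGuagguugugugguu
let-7c: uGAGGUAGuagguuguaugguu
let-7d: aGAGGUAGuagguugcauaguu
let-7e: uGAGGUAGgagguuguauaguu
let-7f: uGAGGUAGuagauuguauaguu
let-7i: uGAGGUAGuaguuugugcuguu
miR-98: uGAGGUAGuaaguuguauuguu
miR-26a: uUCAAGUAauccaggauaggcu
miR-26b: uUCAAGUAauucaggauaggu
miR-125b-5p: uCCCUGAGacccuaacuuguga
miR-125a-5p: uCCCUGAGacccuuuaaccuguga
miR-100: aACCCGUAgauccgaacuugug
miR-99b: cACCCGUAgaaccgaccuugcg
miR-126: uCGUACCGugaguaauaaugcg
miR-145: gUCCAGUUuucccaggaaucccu
miR-532-3p: cCUCCCACacccaaggcuugca
miR-153: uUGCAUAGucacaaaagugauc
miR-448: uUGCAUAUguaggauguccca
miR-489: aUGACAUCacauauauggcagc
miR-32: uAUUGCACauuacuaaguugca
miR-122: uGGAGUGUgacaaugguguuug
Counted from 1 at the 5′ end of let-7a, let-7c differs from it by A19G, let-7e by U9G and let-7f by G12A. let-7b differs by A17G and A19G, let-7d by U1A and U16C, miR-98 by G11A and A19U, and let-7i by G12U, A17G, U18C and A19U. The probe sequences were not used here, and how far 1 family member was captured on another's probe was not tested. Values within the let-7 family can therefore not be taken as independent of one another. The arm of a name without one was assigned from general knowledge. For miR-126, RefSeq lists the sequence as rno-miR-126a-3p.

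The 6 arrays differed in overall signal, which bears on every value below. Raw median intensity was 1080, 1120 and 544 at 0 h in the order of replicates 1 to 3, and 1240, 984 and 1024 at 24 h. Replicate 3 at 0 h was therefore the dimmest array, yet it had the brightest spots. Signal span, the distance on the log2 scale from the median to the bright end of an array, was 1.88, 1.46 and 2.34 at 0 h and 1.69, 0.85 and 0.78 at 24 h, so the bright end was compressed on replicates 2 and 3 at 24 h. The difference in span of -0.79 had an exact two-sided permutation p of 0.2, where 0.1 is the smallest p that 3 against 3 arrays allow. Across the 388 names, arrays of 0 h correlated with one another at 0.883 to 0.952, arrays of 24 h at 0.828 to 0.930, and arrays of different times at 0.670 to 0.818, as a description with no test.

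At 24 h, 7 of the 8 measured let-7 miRNAs, miR-26a, both miR-125 members, miR-99a, miR-100 and the endothelial miR-126 were lower than at 0 h, most of them by 1 to 2 units on the log2 scale. The miRNAs that rose had a low signal at 0 h and rose by less, with miR-153 first. The values are normalized log2 intensities after background correction and quantile normalization, and a change passed at an adjusted p under 0.05 (limma, Benjamini-Hochberg over 388 names). In all, 30 names passed, which is 7.73% of those tested. Of these, 19 were lower (4.90% of all names) and 11 higher (2.84%). The 3 arrays of 24 h did not overlap those of 0 h for 128 names (33.0%), lying entirely below for 48 (12.4%) and entirely above for 80 (20.6%). In a bulk liver sample, fewer cells of a type and less miRNA per cell cannot be told apart.

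**Figure D1:**
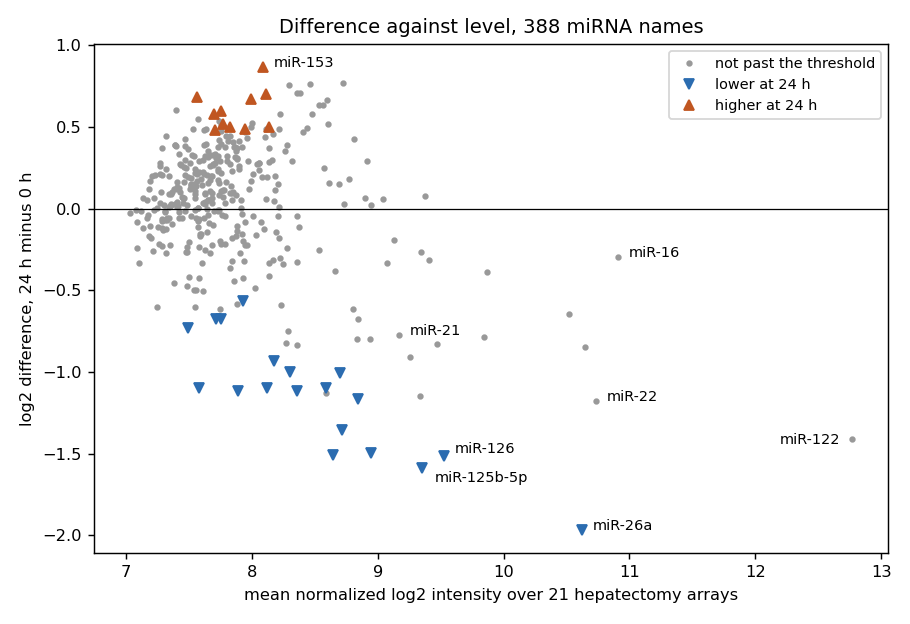
Log2 difference between 24 h and 0 h (vertical axis) against mean normalized log2 intensity over the 21 hepatectomy arrays (horizontal axis), 1 point per miRNA name, with those past the threshold as triangles. The 19 falls reach from dim names to miR-26a at -1.97, and the 11 rises all lie at or under a mean level of 8.14.

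The calls were not spread evenly over the range of levels. Among the 97 names with the highest mean level, 13 fell and 3 rose. Among the 97 dimmest, 1 fell and none rose. The next 97 above these had 2 falls and 3 rises, and the 97 after them 3 falls and 5 rises. The median difference was -0.13 over the brightest 97 names and 0.15 over the 97 just under them, against 0.07 over all 388. The falls had a median rank of 29 at 0 h and of 149 at 24 h among the names on an array, and the rises moved from 228 to 100.

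The counts depended on the scaling. With median centring 5 names were higher and 14 lower, and with centring on the 75th percentile 1 and 14. With no normalization limma called 0 names, with 33 higher and 11 lower at an unadjusted p under 0.05, and the median difference of all names was then 0.35. All 30 names kept their direction under each of these scalings.

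Single arrays decided a part of these counts. Without replicate 3 at 0 h, 12 names were lower and 1 higher, and without replicate 1 at 24 h, 11 were lower and 1 higher. The count of higher names was also 2 without replicate 1 at 0 h and 5 without replicate 2 of either time. The 9 names that passed without each of the 6 arrays in turn were miR-26a, let-7d, let-7c, miR-125b-5p, miR-532-3p, let-7a, miR-100 and let-7f, which fell, and miR-153, which rose. The other 21 did not pass without at least 1 of the arrays. The hepatectomy arrays form a dim and a bright class by raw median, 8 and 13 arrays, and replicate 3 at 0 h alone of these 6 is dim. With the bright arrays alone 17 names were lower and 1 higher, and with the class as a block 26 were lower and 20 higher.

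The let-7 miRNAs, which repress Ras, Hmga2 and Lin28 transcripts and were first found as regulators of developmental timing in worms, fell in 7 of 8 measured members. let-7d was at 9.61, 9.50 and 9.47 at 0 h and at 8.09, 8.02 and 7.99 at 24 h. The arrays of 24 h lay close together (SD 0.05) and more than 1 unit below every array of 0 h. The log2 difference was -1.49 (SE 0.23, adjusted p = 0.000581, limma, n = 3 per group), a 2.82-fold lower level. Its rank among the 388 names went from 15 to 26 at 0 h to 111 to 134 at 24 h.

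let-7c was at 9.47, 9.29 and 9.49 at 0 h and at 7.56, 7.91 and 8.27 at 24 h, a difference of -1.51 (SE 0.24, adjusted p = 0.0007, limma). let-7f, at 9.67, 9.67 and 9.84, went to 8.13, 8.40 and 8.58 (-1.36, SE 0.28, adjusted p = 0.00498). let-7a, at 9.35, 9.24 and 9.73, went to 8.21, 8.36 and 8.25 (-1.16, SE 0.23, adjusted p = 0.00431). For these 3 the groups were apart by more than the range within either. let-7e was the dimmest of the group that got every array's value, at 8.22, 8.03 and 8.50 at 0 h and 6.91, 7.09 and 7.44 at 24 h. Its difference was -1.10 (SE 0.25, adjusted p = 0.00974), and after the authors' background subtraction its median was 56, -32 and 0 intensity units at 24 h, so it was at background there. let-7b fell by 1.10 (adjusted p = 0.00843) and let-7i by 0.73 (adjusted p = 0.042), and both had their highest value at 0 h on replicate 3.

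The remaining member, miR-98, was dim on all 6 arrays, between 6.74 and 7.35, and the groups overlapped (-0.04, adjusted p = 0.939). At that level its background-subtracted medians lay between -40 and 48, so a fall could not have been seen. The family's median difference over the 8 members was -1.13, against 0.07 over all names. The names that fell have genes in several clusters, and the chip does not tell from which gene copy a mature miRNA came. In the GRCr8 gene table, let-7a, let-7d and let-7f lie within 10 kb of one another, let-7c lies beside miR-99a in 1 of its 2 copies and beside let-7b in the other, and let-7a has a second copy beside miR-100.

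Members of the miR-125 and miR-99/100 families fell as well. miR-125b-5p, related to lin-4 of worms, was at 10.09, 10.02 and 10.16 at 0 h and at 8.56, 8.85 and 8.10 at 24 h. The lowest array of 0 h stood more than 1 unit above the highest of 24 h. The difference was -1.59 (SE 0.28, adjusted p = 0.00136, limma), or 3.00-fold lower. miR-100 and miR-99a, which repress mTOR, fell by 0.93 (SE 0.19, adjusted p = 0.00498) and 1.01 (SE 0.23, adjusted p = 0.00952). Of miR-100 the arrays of 0 h were at 8.93, 8.59 and 8.91, and those of 24 h at 7.70, 7.96 and 7.96.

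In the cluster of let-7e, miR-99b and miR-125a not every name passed. While let-7e fell by 1.10, miR-125a-5p fell by 0.56 (SE 0.13, adjusted p = 0.0113), and miR-99b was at 8.16, 7.96 and 8.13 at 0 h and 8.26, 8.11 and 8.23 at 24 h. The groups of miR-99b overlapped and its difference was 0.12 (SE 0.14, adjusted p = 0.677). The 3 genes lie within 10 kb of one another, inside the span of Spaca6. Whether these 3 differences differ from one another was not tested. Over the 8 measured members of the let-7, miR-99/100 and miR-125 clusters, 7 fell and none rose, with a median of -1.05. Over all 388 names, 19 (4.90%) fell. The 7 are names already given above, so this count is no further result.

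**Figure D2:**
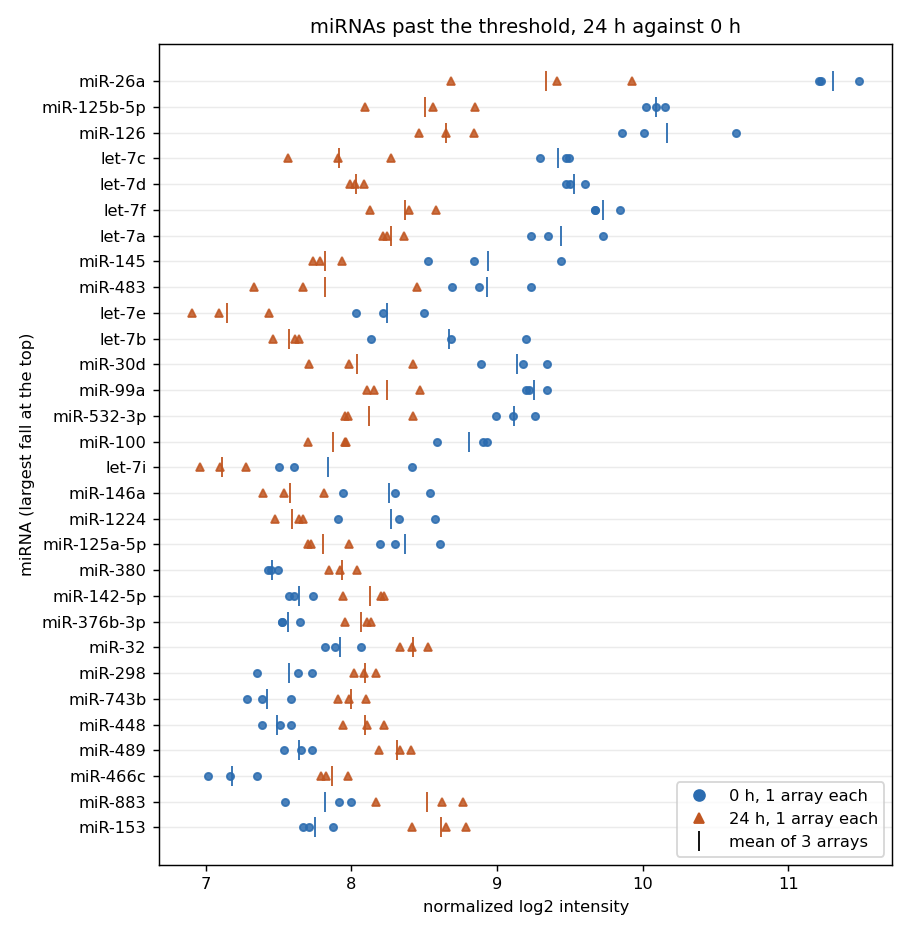
Normalized log2 intensity (horizontal axis) of the 30 miRNAs past the threshold on each of the 3 arrays at 0 h (circles) and the 3 at 24 h (triangles), with the group means as vertical ticks, ordered from the largest fall to the largest rise. The groups do not overlap for any of them. miR-26a shows the largest shift and spreads most among the arrays of 24 h within the let-7, miR-125 and miR-26 families, from 8.68 to 9.92.

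miR-26a showed the largest change of all names. It represses Ezh2 and G1 cyclins and lies inside the span of Ctdspl. Its level was 11.48, 11.21 and 11.22 at 0 h and 9.92, 9.41 and 8.68 at 24 h. All 3 arrays of 24 h were lower by more than 1 unit than any of 0 h, and they spread more widely among themselves (SD 0.62 against 0.16). The difference was -1.97 (SE 0.28, adjusted p = 0.000298, limma), or 3.90-fold lower on this scale. At 0 h it ranked 2, 2 and 3 among the 388 names, at 24 h 7, 7 and 13.

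miR-26b has the same seed and differs from miR-26a by C11U and C21U and by 1 base in length. It lies inside Ctdsp1 and was about 3 units dimmer on its own probes at 0 h, at 8.20, 7.87 and 8.61, and at 7.49, 7.58 and 7.77 at 24 h. The groups did not overlap, but the difference of -0.61 (SE 0.21) did not pass (adjusted p = 0.071). Signals of different probes depend on the probe as well as on the amount of miRNA, so the gap between both miRNAs is not a ratio of their amounts.

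Markers of non-hepatocyte liver cells split. miR-126, which endothelial cells express from an intron of Egfl7 and which sustains VEGF signalling, was at 10.01, 9.86 and 10.64 at 0 h and at 8.65, 8.84 and 8.46 at 24 h. Its groups were 1 unit apart, with replicate 3 at 0 h the highest. The difference was -1.52 (SE 0.36, adjusted p = 0.0113, limma), and the adjusted p was above the threshold without that array. Its background-subtracted median went from 769, 720 and 3969 to 472, 344 and 192 intensity units. It was the 1 endothelial marker on the list.

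miR-145, of smooth muscle and stellate cells, was at 8.84, 8.53 and 9.44 at 0 h and at 7.74, 7.93 and 7.79 at 24 h (-1.12, SE 0.28, adjusted p = 0.015). Its neighbour within 10 kb, miR-143, was at 9.04, 8.59 and 9.66 at 0 h and 9.51, 8.54 and 8.24 at 24 h, so its groups overlapped (-0.33, adjusted p = 0.688). Of the 7 stellate, smooth muscle and mesenchymal names, 1 fell and none rose, with a median of -0.01. Their summed background-subtracted signal ranged from 732 to 2676 at 0 h and from 1088 to 2897 at 24 h.

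Among 6 leukocyte names, miR-146a, which NF-kB induces and which represses Traf6 and Irak1, fell by 0.68 (SE 0.19, adjusted p = 0.039), from 8.30, 7.94 and 8.54 to 7.39, 7.54 and 7.81. miR-142-5p of haematopoietic cells rose by 0.49 (SE 0.14, adjusted p = 0.042), while miR-142-3p from the same hairpin was at -0.13 (adjusted p = 0.814). The myeloid miR-223 was at -0.60 (SE 0.24, adjusted p = 0.112). The list's median was -0.22 and its summed signal ranged from 176 to 816 at 0 h and from 624 to 1336 at 24 h. None of the 2 erythroid, 8 biliary and epithelial or 6 muscle names passed, with medians of 0.11, -0.08 and 0.13. The part that shifts in cell composition had in the falls of miR-126, miR-145 and miR-146a was not tested.

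The remaining 4 falls belong to none of these groups. miR-532-3p, whose gene lies within Clcn5, was at 9.26, 8.99 and 9.11 at 0 h and at 8.42, 7.96 and 7.98 at 24 h (-1.0, SE 0.19, adjusted p = 0.00251). The other arm of that hairpin, miR-532-5p, was at 0.11 (adjusted p = 0.707), and miR-188, miR-362 and miR-501 from the same gene were between 0.01 and 0.23, none past the threshold. miR-483, hosted by Igf2, was at 8.87, 8.69 and 9.23 and then at 7.33, 7.67 and 8.45, and replicate 3 at 24 h came close to the 0 h arrays (-1.11, SE 0.33, adjusted p = 0.042). miR-30d fell by 1.10 (SE 0.27, adjusted p = 0.015). miR-1224, a mirtron of Vwa5b2, fell by 0.68 (SE 0.20, adjusted p = 0.042).

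In several other families few or no members passed. The other 4 measured miR-30 members were all negative, from -0.34 for miR-30a to -0.80 for miR-30c. Of the miR-23/27/24 clusters none of 5 passed, with a median of -0.83, and miR-27a (-0.82, adjusted p = 0.0575), miR-27b (-1.13, adjusted p = 0.0665) and miR-23a (-0.91, adjusted p = 0.0707) came just short of the threshold. miR-29a was at -1.15 (adjusted p = 0.0963), from 9.73, 9.47 and 10.30 to 9.18, 8.53 and 8.35. The families of miR-15 and miR-16, miR-17, miR-34, miR-181, miR-103 and miR-148 had no member past the threshold, and their medians lay between -0.23 and 0.29.

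**Figure D3:**
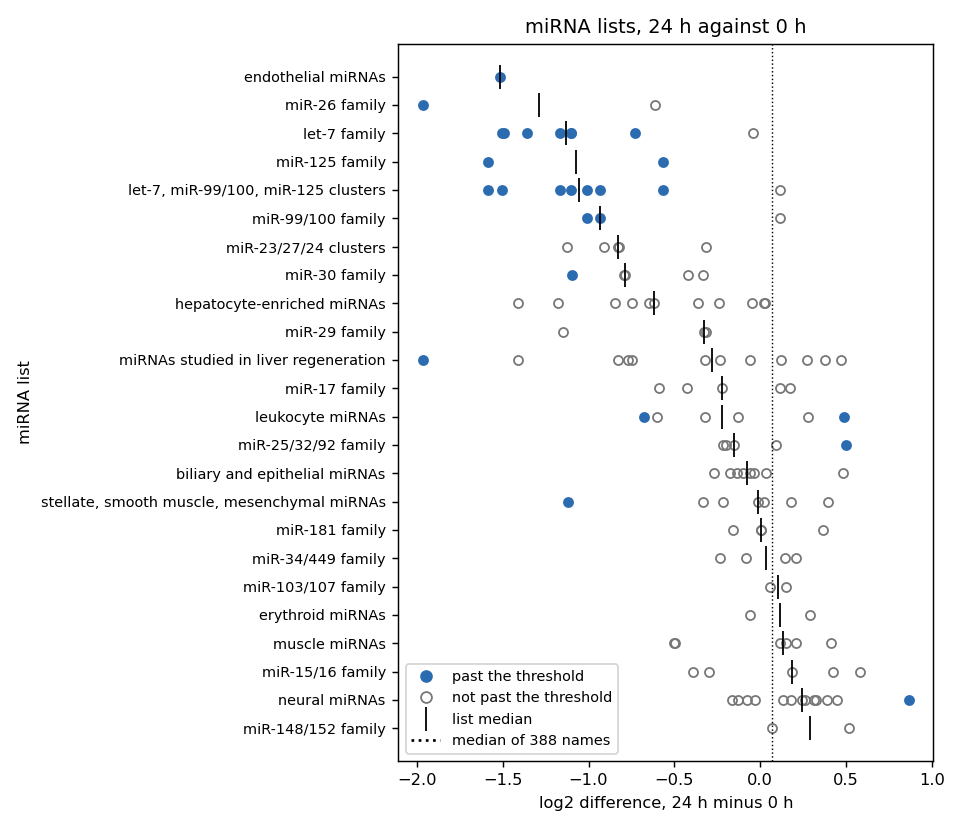
Log2 difference between 24 h and 0 h (horizontal axis) of the measured members of each miRNA list (vertical axis), filled where past the threshold, with the list median as a tick and the median of all 388 names, 0.07, as a dotted line. All members of the let-7, miR-26, miR-125, miR-30, miR-29 and miR-23/27/24 lists lie left of the dotted line.

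The 11 rises were all of names with a low signal at 0 h, with group means there between 7.18 and 7.93. By mean level over the hepatectomy arrays, 8 of them lay above the median name. miR-153, a neural miRNA from the span of Ptprn2, was at 7.87, 7.67 and 7.71 at 0 h and at 8.79, 8.65 and 8.41 at 24 h. Every array of 24 h was higher by more than the range within either group. The difference was 0.87 (SE 0.18, adjusted p = 0.00629, limma), or 1.82-fold higher, and its rank went from 143, 204 and 168 to 44, 29 and 44. Its background-subtracted median was 104, 16 and 64 at 0 h and 536, 264 and 288 at 24 h.

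miR-448, from the span of the serotonin receptor gene Htr2c, has the same first 7 bases as miR-153 and so shares 6 of its 7 seed bases. It was at 7.51, 7.58 and 7.39 at 0 h and 8.22, 7.95 and 8.11 at 24 h (0.60, SE 0.15, adjusted p = 0.015). miR-489, from the span of the calcitonin receptor gene Calcr, was at 7.73, 7.66 and 7.54 and then at 8.41, 8.34 and 8.19 (0.67, SE 0.16, adjusted p = 0.0113). In both the groups were narrow and apart.

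miR-883 and miR-743b come from 1 gene cluster, which in the mouse lies on the X chromosome and is expressed in testis. miR-883 was at 7.92, 8.0 and 7.54 at 0 h and 8.62, 8.76 and 8.17 at 24 h (0.70, SE 0.21, adjusted p = 0.042). miR-743b was at 7.28, 7.58 and 7.39 and then at 8.10, 7.98 and 7.91 (0.58, SE 0.16, adjusted p = 0.0376). Replicate 3 of 24 h was the lowest of its group in both and still lay above every array of 0 h.

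miR-466c, from the span of Sfmbt2, was at 7.02, 7.17 and 7.35 at 0 h and 7.97, 7.83 and 7.79 at 24 h (0.69, SE 0.20, adjusted p = 0.039). At 0 h its background-subtracted medians were -16, -16 and 0, so it was not above background there. miR-298 was at 7.64, 7.35 and 7.73 and then at 8.17, 8.09 and 8.02 (0.52, SE 0.15, adjusted p = 0.042). miR-32, of the miR-25/32/92 seed family that represses the cell death gene Bcl2l11, was at 7.82, 7.89 and 8.07 and then at 8.53, 8.42 and 8.33 (0.50, SE 0.15, adjusted p = 0.042). The other 4 measured members of that family did not pass, with miR-25 at -0.20 and miR-92a at -0.22. miR-376b-3p and miR-380, both of the imprinted Dlk1-Dio3 region, rose by 0.50 (adjusted p = 0.029) and 0.48 (adjusted p = 0.039). Of 13 neural names miR-153 alone passed, and the list's median was 0.24.

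The hepatocyte markers matched the tissue label and spread widely at 24 h. miR-122, which hepatocytes express almost exclusively, ranked first on all 6 arrays. It was at 13.33, 12.92 and 13.37 at 0 h and at 13.17, 12.23 and 9.99 at 24 h. Replicate 1 at 24 h lay within the range of 0 h and replicate 3 far below it, so the groups overlapped and the difference of -1.41 (SE 0.56) did not pass (adjusted p = 0.105). It was -0.51 without replicate 3 at 24 h (adjusted p = 0.523) and -2.09 without replicate 1 (adjusted p = 0.0343). Its background-subtracted medians were 7794, 5746 and 43442 at 0 h and 11339, 2457 and 1008.5 at 24 h.

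miR-192 (-0.65, SE 0.35, adjusted p = 0.24) and miR-194 (-0.85, SE 0.47, adjusted p = 0.26), which liver and gut express, had the same order of arrays at 24 h, with replicate 1 highest and replicate 3 lowest. miR-22 was at -1.18 (SE 0.44, adjusted p = 0.092), and miR-378, from an intron of Ppargc1b, at -0.75 (SE 0.28, adjusted p = 0.085). Of 11 hepatocyte-enriched names none passed, 9 were negative and the median was -0.62. Their summed background-subtracted signal ranged from 10185 to 66175 at 0 h and from 4585.5 to 18014 at 24 h. Their part in the falls of other miRNAs was not tested.

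Of 12 miRNAs that have been studied in liver regeneration, miR-26a passed. The arrays of both times did not overlap for 6 of the 12, against 128 of all 388 names (33.0%). miR-21, which represses Pdcd4, was at 9.18, 9.18 and 10.27 at 0 h and 9.38, 8.72 and 8.21 at 24 h, with overlap (-0.77, SE 0.46, adjusted p = 0.295). miR-221 and miR-222, which repress the cell cycle inhibitor p27, were at 0.27 (SE 0.15, adjusted p = 0.246) and 0.38 (SE 0.20, adjusted p = 0.232). The p53 target miR-34a was at -0.24 (SE 0.15, adjusted p = 0.345). miR-16, which represses cyclins, was at -0.30 (SE 0.44, adjusted p = 0.732), and miR-17-5p of the Myc-induced miR-17-92 cluster at -0.59 (SE 0.23, adjusted p = 0.095). With SEs of this size these values do not show that the levels were equal.

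Background-subtracted medians, the raw spot median of a name less the authors' constant for the array, were not scaled between arrays. They show what the normalization does to both directions. The authors deposited such medians for a part of the 388 names, and for the others the same constants were subtracted here. Over all 388 names, these medians lay entirely higher at 24 h for 210 (54.1%) and entirely lower for 8 (2.06%). The array median of the subtracted spots was 72, 48 and 80 at 0 h and 280, 144 and 112 at 24 h (exact two-sided permutation p = 0.1, the smallest possible). All 11 rises were among the names that lay entirely higher. Of the 19 falls, 18 had a lower mean at 24 h and 7 lay entirely lower. miR-125a-5p was the exception, at 176, 100 and 184 and then at 288, 184 and 64.

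On that unscaled measure miR-26a went from 3457, 1825 and 6098 to 937, 536 and 136, a ratio of group means of 7.07. miR-125b-5p went from 1033, 769 and 2169 to 368, 296 and 112, and let-7c from 536, 480 and 872 to 224, 168 and 240. The falls of these 3 were therefore present before any scaling. Among other falls, let-7a, let-7b, let-7i, miR-99a, miR-100 and miR-532-3p overlapped between the times on this measure. let-7a was at 296, 336 and 1128 at 0 h and at 312, 192 and 232 at 24 h. The rises moved together with the level of the whole array, and the part of that shift in them was not tested.

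**Figure D4:**
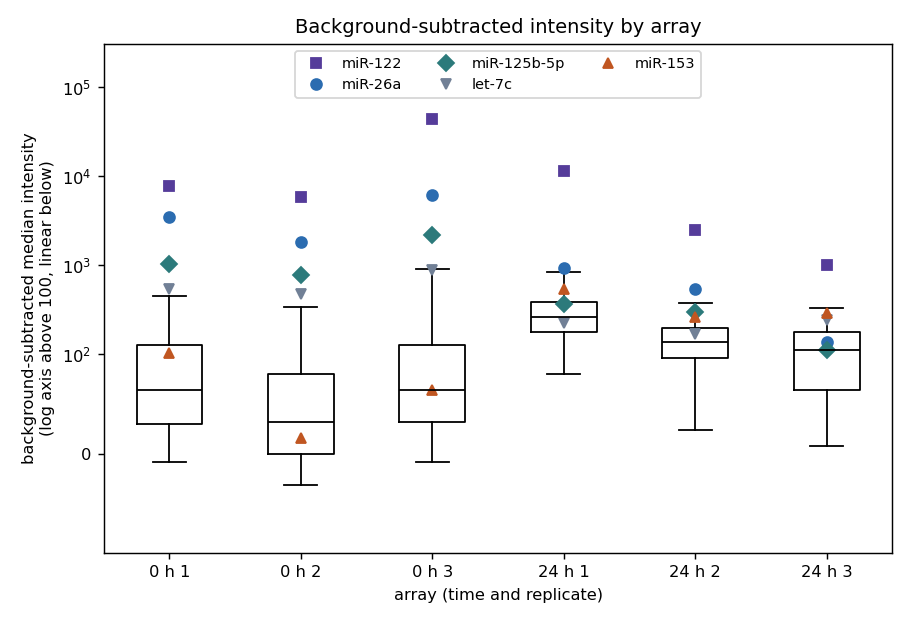
Background-subtracted median intensity (vertical axis, log above 100 and linear below) of 5 miRNAs on the 6 arrays, over boxes that give the quartiles of all 388 names, with whiskers to the outermost 5% on either side. miR-26a, miR-125b-5p and let-7c lie lower on the 24 h arrays while the boxes lie higher, and miR-153 lies higher along with the boxes.

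The neighbouring times asked whether 24 h stood apart within the course. Against 12 h no name passed (limma, 0 of 388, with 10 or 2.58% at an unadjusted p under 0.05), and the 3 smallest p values belonged to let-7d (-0.76), miR-26a (-0.85) and miR-125b-5p (-0.83), all with adjusted p = 0.892. From 24 to 48 h again none passed (15 or 3.87% at an unadjusted p under 0.05). There the 3 smallest p values belonged to miR-26a (1.0), miR-153 (-0.62) and miR-675 (0.45), all with adjusted p = 0.433. Both comparisons use the same 24 h arrays as the comparison with 0 h.

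Relative to 0 h, the median over the 19 falls at 2, 6, 12, 24 and 48 h and 5 d was -0.37, -0.39, -0.85, -1.10, -0.95 and -0.61 in that order. Over the 11 rises it was 0.13, 0.27, 0.40, 0.58, 0.25 and 0.29. The names were chosen at 24 h and every time shares the 0 h arrays, so these medians are a description. miR-532-3p went another way, with means of 9.12 at 0 h, 8.12 at 24 h and 8.07 at 48 h, and its difference from 12 to 24 h was -0.03.

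**Figure D5:**
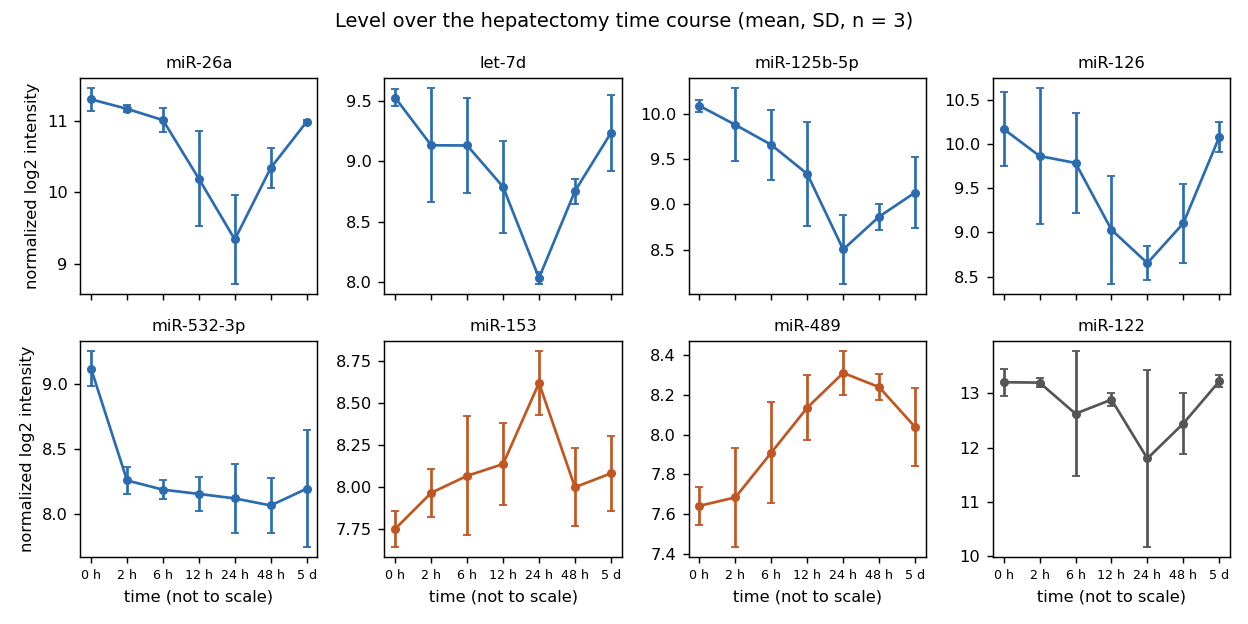
Mean normalized log2 intensity (vertical axes, which differ between panels) at each time after hepatectomy (horizontal axes, not to scale), with bars for 1 SD over 3 arrays. miR-26a, let-7d, miR-125b-5p and miR-126 have their lowest mean at 24 h and miR-153 and miR-489 their highest, miR-532-3p is low at every time after 0 h, and miR-122 has its widest bar at 24 h.

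Sham-operated liver at 24 h was the study's control for surgery. Of 376 names shared by both chip layouts, 43 (11.4%) differed between hepatectomy and sham at 24 h, 17 higher (4.52%) and 26 lower (6.91%) after hepatectomy. Sham arrays were of another layout, so operation and layout cannot be told apart in any of these values. miR-23a had the smallest p value (-1.43, SE 0.21, adjusted p = 0.000157), followed by miR-148b-3p (1.08, adjusted p = 0.000604) and let-7i* (1.27, adjusted p = 0.000677). Without replicate 2 at 24 h the count of lower names was 16, and with median centring 9 were higher and 50 lower.

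Of the 19 names that fell against 0 h, 17 were negative against sham and 10 passed. The falls and the rises were chosen on the same 24 h arrays that this comparison uses. A shared direction against sham was therefore favoured by that choice and is a description. let-7d was at 7.86, 7.93 and 7.79 after hepatectomy and 9.21, 9.29 and 9.53 after sham, on the scale of the joint fit (-1.49, SE 0.27, adjusted p = 0.000677). let-7e (-1.17), miR-125b-5p (-1.37), let-7b (-1.06), let-7c (-1.09), let-7i (-0.68), miR-146a (-0.82), miR-145 (-0.89), miR-532-3p (-0.67) and miR-30d (-0.79) also passed. let-7a (-0.76, adjusted p = 0.172), let-7f (-0.50, adjusted p = 0.428), miR-126 (-0.69, adjusted p = 0.161) and miR-100 (-0.30, adjusted p = 0.376) did not.

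miR-26a, with the largest fall against 0 h, was at 10.47, 10.47 and 9.80 after hepatectomy and 10.47, 10.84 and 10.84 after sham (-0.47, SE 0.18, adjusted p = 0.099). Quantile normalization of averaged spots gives each rank the same value on every array of this fit. miR-122, first on every array, was therefore at 0.00 by construction. The part of the normalization in the value of miR-26a was not tested. The 11 rises were all positive against sham, and miR-153 (0.79, SE 0.17, adjusted p = 0.00299), miR-883 (0.75, adjusted p = 0.0176) and miR-32 (0.64, adjusted p = 0.0143) passed. Among the fixed set, miR-378 passed against sham (-0.68, adjusted p = 0.0237). miR-153 was at 8.49, 8.85 and 8.49 after hepatectomy and 7.77, 7.83 and 7.85 after sham, with no overlap.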

How the data were processed

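Per the labels, total RNA of male Wistar rat livers was measured on 1-colour febit chips. The authors deposited raw spot intensity on a linear scale, with 15 spots per name on the 21 hepatectomy arrays and 22 on the sham arrays. The deposited background-subtracted intensity equals the raw spot median less a constant that is the same for every name on an array, and the authors' processed values are on a log2 scale and cover 323 names. The sources used here name no image software and do not say how the constants were chosen. Names absent from the authors' background-subtracted values were given the raw spot median less the same constants.

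Raw intensities were corrected with normexp (offset 50), log2 transformed, quantile normalized and averaged per name with limma 3.58.1 in R 4.3.3. A linear model with empirical Bayes moderation was fitted over 7 hepatectomy groups (14 residual degrees of freedom, median SE 0.192). P values are two-sided and adjusted over 388 names (376 in the joint fit of 30 arrays with sham, where spots were averaged first). All adjusted p values come from limma. The method was tested on simulated data with known changes, drawn without the differences in signal span between the arrays. Missing spots (0.585%) were left out, and no 2 of the 6 arrays at 0 h and 24 h held the same values. The number of arrays limits the precision. The limma p values set each difference against the spread within groups of samples labelled as biological replicates, pooled over all groups of the fit.

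Every name past the threshold against 0 h is named. The 10 largest falls and 8 largest rises get every array's value, and a few family or cluster neighbours were added after their values were seen. A fixed set of 13 and the 3 smallest p values of the other comparisons were added. The members and lists were chosen with earlier results of these data known. Alternatives were other normalizations, the authors' values, the median of spots, a level filter, array weights, signal span, array brightness, a replicate block and leaving out each array.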

Additional observations from a re-analysis of the deposited data

How the results depend on the processing

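Against 0 h, 11 names were higher and 19 lower. No normalization moved the median difference of all names from 0.07 to 0.35. The count of higher names was 0 with no normalization, 5 with median centring, 1 on centring at the 75th percentile, 1 with the authors' background-subtracted medians, 4 with their processed values, 2 with the median of spots, 17 in the upper part by level, 46 with array weights, 57 with signal span as a covariate, 20 with brightness as a block and 1 with the bright arrays alone. The count of lower names was 0 with no normalization, 5 with the background-subtracted medians, 32 with the processed values, and 46 both with array weights and with span. The other settings kept both counts within 1.5 times. Leaving out 1 array gave 1 to 9 higher and 11 to 24 lower. All 30 names kept their direction in every alternative that held them (24 in the upper part by level). They were chosen on these same arrays and their groups did not overlap, which favours a kept direction. Against sham, median centring gave 9 higher and 50 lower, and leaving out 1 array at 24 h gave 15 to 16 higher and 16 to 21 lower. Against 12 h and 48 h the counts stayed 0 under median centring, the replicate block and each omission. Of the named miRNAs that did not pass, miR-34a turned to 0.058 with no normalization, miR-22 to 0.030 with the background-subtracted medians, and miR-16 to 0.60 with those medians, 0.42 with span and 0.15 without replicate 3 at 24 h, against -0.76 without replicate 1 there. The cause was not tested. The replicate block gave 12 higher and 26 lower against 0 h, and 18 and 28 against sham. Deviations of same-numbered arrays correlated at 0.18, 0.21 and -0.11, and the labels do not say that a number marks a shared batch, so the numbers were not taken as pairs. Signal near background limits the dim names, above all let-7e and let-7i at 24 h and miR-466c at 0 h.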
